A study of Mus musculus with 8 samples.

Results

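A group of 9 genes of bone morphogenetic protein (BMP) and activin signalling were followed in embryonic mouse kidneys: the activin subunit genes Inhba and Inhbb, the activin-binding antagonist Fst, the ligands Bmp2, Bmp4, Bmp5 and Bmp7, the antagonist Grem1 and the modulator Bmper. They were chosen by name, with earlier results of these data known. Their probes were found by the RefSeq accession that the array gives each probe. All 9 were measured, by 13 of the 41174 probes on the array, against 17114 genes that could be named in all. Of the 9 genes, 5 had 1 probe and 4 had 2, and the 13 probes took up 40 spots on each array.

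The study compared kidneys of wild type embryos with kidneys of UB HDAC1,2-/- embryos at E13.5 of embryonic development, where UB is the ureteric bud, the epithelial tube that branches to form the collecting ducts. HDAC1 and HDAC2 are histone deacetylases, enzymes that remove acetyl groups from histones. All embryos were of a strain mixed from CD1 and C57BL/6, and whole kidneys were taken, so RNA of the bud is mixed with RNA of the mesenchyme, stroma, vessels and blood. What drives the deletion in the bud, and whether kidneys were pooled, is not given in the sources used here. There were 4 biological replicates, each with 1 RNA per genotype. Each pair was hybridised on 2 arrays, with the dyes Cy3 and Cy5 exchanged, which makes 8 arrays on 2 slides. Slide 1 held replicates 1 and 2, and slide 2 held replicates 3 and 4. A fit within 1 slide therefore rests on 2 replicates.

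Activins and BMPs are secreted dimers of the TGF-beta family that bind type I and type II receptors, which then phosphorylate Smad proteins. In the kidney, BMP4 from the mesenchyme around the duct restrains budding, and gremlin (Grem1) binds BMPs and so permits the bud to grow and branch. BMP7 keeps nephron progenitors alive. Activins restrain branching, and follistatin (Fst) binds and blocks them.

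The promoters of the activin subunit genes Inhbb and Inhba are shown. Regardless of sign, their mean log2 ratios were the largest and the smallest in size among the 9 genes. Both lines give the 250 bases before the RefSeq start in GRCm38.p6, 5′ to 3′ on the gene's own strand, with capitals at each GC box (GGGCGG) or TATA box (TATAAA) on either strand. The stretches are chr13:16011601-16011850 on the plus strand for Inhba and chr1:119422249-119422498 on the minus strand for Inhbb.
Inhba: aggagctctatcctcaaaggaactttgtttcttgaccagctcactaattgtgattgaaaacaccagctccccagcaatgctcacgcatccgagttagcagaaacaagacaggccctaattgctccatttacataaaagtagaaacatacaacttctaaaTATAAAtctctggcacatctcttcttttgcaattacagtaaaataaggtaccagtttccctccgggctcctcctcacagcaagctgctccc
Inhbb: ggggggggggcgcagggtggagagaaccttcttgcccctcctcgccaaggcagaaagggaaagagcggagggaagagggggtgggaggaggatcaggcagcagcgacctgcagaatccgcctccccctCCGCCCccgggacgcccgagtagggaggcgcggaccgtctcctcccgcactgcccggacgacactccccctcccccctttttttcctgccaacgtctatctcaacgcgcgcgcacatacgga

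The Inhba stretch held 43.2% G and C and 3 CpG, and 1 TATA box that begins 91 bases before the start. The Inhbb stretch held 68.0% G and C, 21 CpG and 1 GC box, which reads CCGCCC on the strand shown, and the TATA box letters were not in it. Of the 9 genes, 6 had an entry in the promoter table, and 4 of these 6 held a GC box (Inhbb, Bmp4, Grem1 and Bmper) and 1 a TATA box. Among all 32851 promoters of this length, 32.7% held a GC box and 12.4% a TATA box on either strand, and the median content was 52.4% G and C with 6 CpG. These matches describe letters only, and the arrays did not measure binding or chromatin.

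The values below are log2 ratios, 1 per replicate, labelled mutant over labelled wild type, each the mean of both dye orientations. Their sign follows the dye labels, and it is unsettled. The authors' deposited table holds log2 ratios without a stated direction. Of its 496 entries, 459 equal the mean ratio over the 8 arrays with the sign turned, within 0.01, and 0 equal it as labelled. If the table puts the mutant in the numerator, every sign here turns.

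Hdac2, the targeted gene that was measured, did not settle the labels. Its log2 ratio was 0.60 in replicates 1 and 2, 0.74 in replicate 3 and -0.61 in replicate 4. They averaged 0.33 ± 0.63 (SD, n = 4), with a two-sided exact sign-flip permutation p = 0.5, where 1 in 8 is the smallest that 4 pairs can give. The 3 positive replicates go against the label, and Hdac2 of the other kidney cells is in the same RNA. Hdac1 is not analysed here. Per array, 81.7% to 95.8% of probes gave a signal well above background in the channel of the labelled mutant and 78.9% to 97.0% in the other channel. Replicate 2 stood apart: its log2 ratios had an SD of 0.62 over the named genes, against 0.21 to 0.24 in the other replicates. It was the highest replicate for 47.6% of the named genes and for 10 of the 13 probes described here. The other replicates were not closely alike either. Between pairs of replicates the log2 ratios correlated at -0.148 to 0.413, and at 0.009 to 0.413 among replicates 1, 3 and 4. Both dye orientations of a replicate correlated at 0.216 to 0.584.

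Markers of the bud and of macrophages moved with the labelled groups, and their values stand beside every member's ratio. These marker lists were chosen with earlier results of these data known, so the counts are a description only. After adjustment in limma, 1 bud gene, Cdh16 (adjusted p = 0.042), and 0 macrophage genes were called, against 0.0175% of all named genes. Over all named genes, 58.4% were above 0, and at an unadjusted p under 0.05 in limma 4.14% were higher and 1.95% lower. Of 14 bud epithelium genes, 12 were above 0 and 10 were higher at that p, with a median log2 ratio of 0.42. Their summed signal was 70247 to 131914 in the RNA labelled mutant and 48245 to 72350 in the RNA labelled wild type. All 8 macrophage genes were below 0, 4 of them lower at that p, with a median of -0.34 and summed signals of 4693 to 6452 against 6629 to 7514. The 9 stromal genes had a median of -0.11, with 7 below 0 and 3 lower at that p, and the 8 nephron progenitor genes -0.04. The 7 genes of ureter and bladder mesenchyme, all below 0 on 1 probe each, had a median of -0.23, with 0 at that p. Their median was 0.11 in replicate 4, and their summed signals overlapped, at 22008 to 39193 against 23760 to 40474. Other probes of Acta2 and Tagln reached 0.20 and 0.26. The 6 erythroid genes had a median of -0.15. The 7 measured neural genes had a median of -0.04, with 5 below 0 and 2 lower at that p, Stmn2 at -0.71 ± 0.33 (SD, n = 4) and Ngfr at -0.50 ± 0.28, and summed signals of 8447 to 13823 against 12963 to 16319. The medians were -0.02 for 7 adrenal and gonadal genes and 0.06 for 8 endothelial genes, with 1 gene of each higher at that p. All 14 bud genes and all 8 nephron progenitor genes were well above background on the 8 arrays in both RNAs, so the markers of embryonic kidney were present. With normexp and median centring in place of the scanner ratio the medians turned to 0.22 for stroma, 0.18 for nephron progenitors and 0.17 for erythroid cells, while those of the bud (0.61) and of macrophages (-0.26) kept their sign. The part of these cell types in the members' ratios was not tested. In RNA of whole kidneys, fewer cells of a type and less RNA per cell cannot be told apart.

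Across the 9 genes, on the brightest probe of each, Inhbb stood lower and the other 8 higher than 0 in the RNA labelled mutant, and none passed after adjustment. The 13 probes had adjusted p-values of 0.194 to 0.906 in limma (Benjamini-Hochberg over all 39520 probes tested), and 0 were called, while 0.0177% of all probes were called. On these probes, 3 of the 9 genes were at an unadjusted p under 0.05: Bmp2 and Fst higher, Inhbb lower. Among all named genes, 6.08% were at that p, 4.14% higher and 1.95% lower. Because the 9 genes were chosen with earlier results of these data known, the shares are a description only. At that p and at least 1.4-fold, the selection that the name of the authors' table cites, there was 1 of the 9 genes, Inhbb, and 1.82% of all named genes. The median log2 ratio of the 9 genes was 0.18, against 0.04 over all named genes, of which 58.4% were above 0. Without replicate 2 the median of the 9 was 0.06 and 6 of them were above 0. Of the 13 probes, 4 had 1 sign in 4 of 4 replicates, against 16.4% of all probes.

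**Figure D1:**
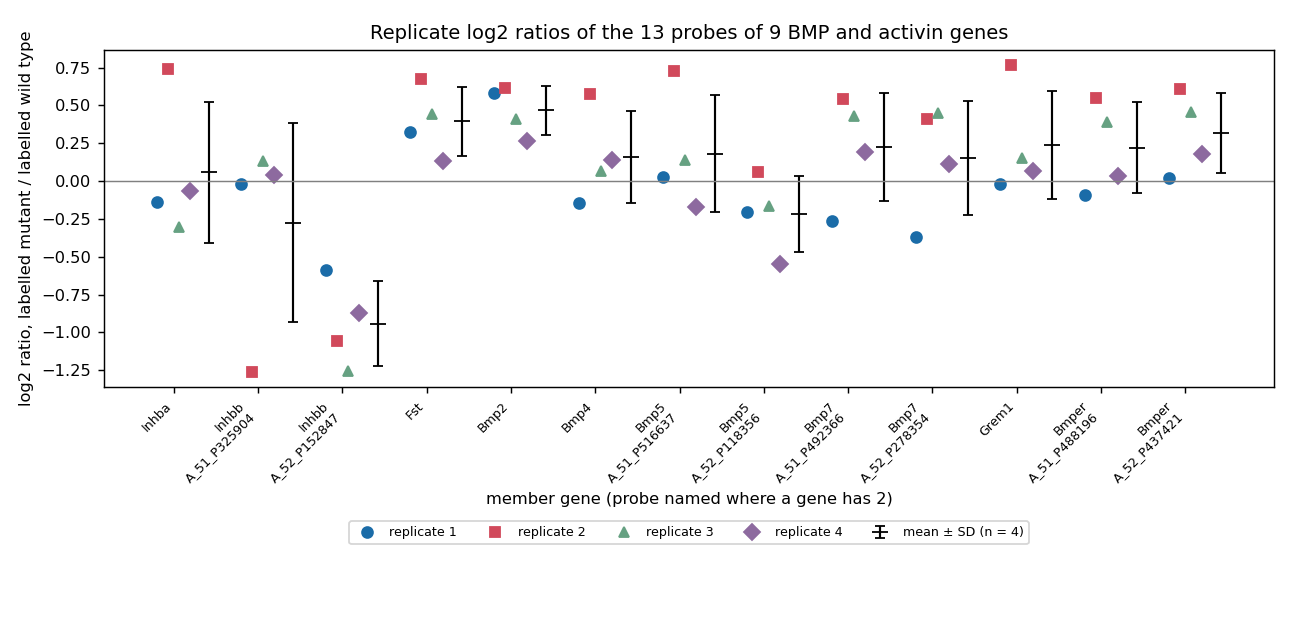
The y axis gives the log2 ratio, labelled mutant over labelled wild type, and the x axis the 13 probes. Coloured points are replicates 1 to 4, and black marks the mean with its SD (n = 4). The second Inhbb probe lies below 0 in all replicates, at -0.59 to -1.25, and Bmp2 and Fst lie above 0 in all. Replicate 2 is the highest point for 10 of the 13 probes.

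Inhbb encodes the beta-B subunit, which pairs with itself to form activin B. Its brighter probe, A_52_P152847, had processed signals in replicates 1 to 4 of 327.9, 271.1, 324.4 and 263.4 in the RNA labelled mutant. The labelled wild type gave 492.5, 563.5, 773.5 and 480.8. All 4 values of the labelled mutant lay below all 4 of the labelled wild type, which was so for no other member probe, and the labelled groups did not overlap for 0.872% of all probes in either direction. The log2 ratios were -0.59, -1.06, -1.25 and -0.87, with a mean of -0.94 ± 0.28 (SD, n = 4), which is 1.92-fold lower in the RNA labelled mutant. The ratio was below 0 on 8 of 8 arrays, and the difference exceeded the spread between replicates.

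In limma this probe had an SE of 0.13 and an adjusted p of 0.194. The exact sign-flip permutation p was 1 in 8, the smallest possible with 4 replicates. In the fit of all 8 arrays with the replicate as a block the adjusted p was 0.0308, and with array weights it was 0.0143. On slide 2 alone, a fit of replicates 3 and 4 only, it was 0.0308. Of 17 alternative settings, only these 3 made the probe a call, and they called 133, 462 and 452 probes over the whole array. The array weights gave replicate 3, where this probe was lowest, a weight of 4.073, against 0.18 to 1.19 for the others. In limma the adjusted p was 0.165 with normexp and loess and 0.903 without replicate 3. It was 0.999 on slide 1 alone, a fit of replicates 1 and 2 only. Within slide 1 the mean was -0.82 and within slide 2 it was -1.06. The mean was -0.84 when replicate 3 was left out and -1.06 when replicate 1 was, with the other 2 cases between them. In the authors' deposited table Inhbb has a log2 ratio of 0.94, the same size with the other sign.

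The dimmer Inhbb probe, A_51_P325904, gave another picture. Its signals were 203.3, 189.8, 186.8 and 169.9 for the labelled mutant and 206.1, 454.1, 170.3 and 165.5 for the labelled wild type. Replicate 2 was the only one of the 4 with a wide gap, and the labelled groups overlapped. The log2 ratios were -0.02, -1.26, 0.13 and 0.04, with a mean of -0.28 ± 0.66 (SD, n = 4; limma's adjusted p = 0.757), and the mean turned to 0.05 without replicate 2. Set against each other within replicates, the brighter probe stood lower in replicates 1, 3 and 4 (differences of -0.57, -1.39 and -0.91) and higher in replicate 2 (0.20). The mean difference, brighter minus dimmer, was -0.66 ± 0.67 (SD, n = 4; two-sided exact sign-flip permutation p = 0.25, and 0.25 after Benjamini-Hochberg adjustment over the 4 genes with 2 probes). Which transcripts each probe reads was not analysed here.

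**Figure D2:**
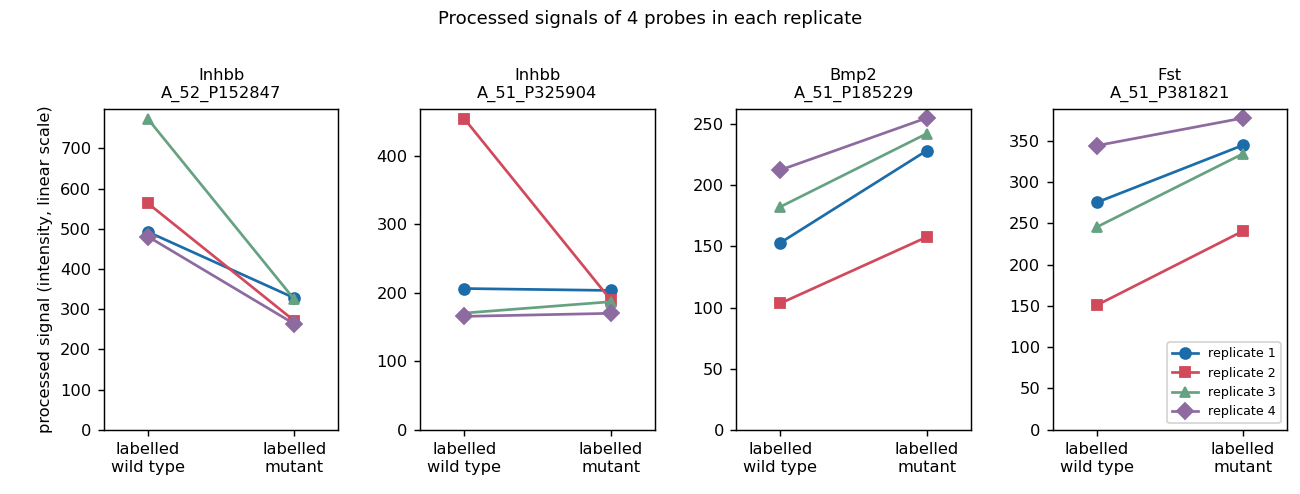
Each panel plots the processed signal (linear intensity, from 0) of 1 probe in the RNA labelled wild type and the RNA labelled mutant, with 1 line per replicate. For the Inhbb probe A_52_P152847 every line falls, from 480.8 to 773.5 down to 263.4 to 327.9, while for the other Inhbb probe the line of replicate 2 alone is steep. For Bmp2 and Fst every line rises, and the ranges of the labelled groups overlap.

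Inhba encodes the beta-A subunit, which forms activin A. Its signals were 581.8, 361.6, 616.5 and 485.2 in the RNA labelled mutant and 641.6, 216.9, 760.0 and 507.9 for the labelled wild type. The log2 ratios were -0.14, 0.74, -0.30 and -0.07, below 0 in the 3 replicates other than replicate 2. The mean was 0.06 ± 0.46 (SD, n = 4; limma's adjusted p = 0.906), and -0.17 without replicate 2, so the sign of Inhba rests on that replicate.

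Fst encodes follistatin, the secreted protein that binds activins. Its signals were 344.5, 240.6, 334.2 and 377.3 in the RNA labelled mutant and 275.1, 150.7, 245.3 and 343.9 for the labelled wild type. The labelled mutant was higher in each of the 4 replicates, with overlapping ranges. The log2 ratios were 0.32, 0.67, 0.45 and 0.13, with a mean of 0.39 ± 0.23 (SD, n = 4; limma's adjusted p = 0.706), which is 1.32-fold. With Cy5 on the labelled mutant the mean was 0.17, and with Cy3 on it 0.62. This gap between the dye orientations had the smallest possible exact sign-flip permutation p, 1 in 8. With normexp background correction and loess in place of the scanner's ratio, the mean of Fst was 0.28, and with normexp and median centring 0.22. Neither was at an unadjusted p under 0.05 in limma, nor was the mean without replicate 3 (0.38), within slide 1 (0.50), within slide 2 (0.29) or with Cy5 on the labelled mutant.

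Bmp2 encodes a BMP ligand that slows branching of bud cells in culture. Its probe was printed at 10 places on each array, more than any other member's except Bmp4 and Bmp7. The signals were 228.5, 157.8, 242.4 and 255.2 in the RNA labelled mutant and 153.1, 103.5, 182.5 and 212.6 for the labelled wild type. The labelled mutant was higher in every replicate, though the ranges of the labelled groups overlapped, at 157.8 to 255.2 against 103.5 to 212.6. The log2 ratios were 0.58, 0.61, 0.41 and 0.26, with a mean of 0.47 ± 0.16 (SD, n = 4), which is 1.38-fold.

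The adjusted p of Bmp2 was 0.505 in limma. The ratio was above 0 on 7 of 8 arrays, with means of 0.29 where Cy5 marked the labelled mutant and 0.64 where Cy3 did. Within slide 1 the mean was 0.60 and within slide 2 it was 0.34. The size changed with the processing, at 0.27 with normexp and loess and 0.19 with normexp and median centring. Both settings replace the scanner's background correction and its dye normalization together. The unadjusted p in limma was no longer under 0.05 in the latter, within slide 1 or with Cy5 on the labelled mutant.

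The 10 spots of Bmp2 show how much a single spot can differ from its probe. Their mean ratios over the 8 arrays ran from 0.25 to 0.53, with a median of 0.42 and an SD of 0.09 between spots, which are technical repeats. On at least 1 array, 7 of the 10 were marked as outliers, and with those spots kept the mean of Bmp2 was 0.42. Of the 10 spots, 3 were at least 1.4-fold, and the authors' deposited table holds 3 Bmp2 entries, at -0.531, -0.509 and -0.492. These have the size of the 3 highest spots with the other sign, while the other 7 spots lay below 1.4-fold.

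**Figure D3:**
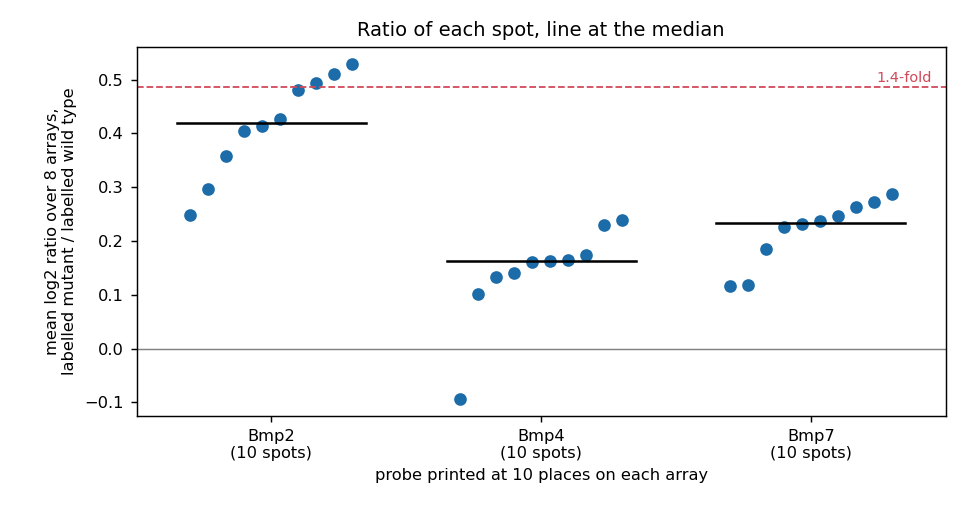
The y axis gives each spot's mean log2 ratio over the 8 arrays, labelled mutant over labelled wild type, for the 3 probes printed at 10 places, with a black line at the median. The dashed line is 1.4-fold. Of the Bmp2 spots, 3 of 10 lie above it, and 0 of the Bmp4 and Bmp7 spots do.

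Bmp4, the ligand of the mesenchyme around the bud, had log2 ratios of -0.14, 0.58, 0.07 and 0.14. Replicate 2 was the high one, the mean was 0.16 ± 0.30 (SD, n = 4; limma's adjusted p = 0.757), and it was 0.02 without replicate 2, 0.26 without replicate 1 and 0.095 with normexp and loess. The 10 spots of Bmp4 had a median of 0.16, from -0.09 to 0.24. Its signal was 754.3 to 1277.9 in the RNA labelled mutant and 509.4 to 1157.9 in the RNA labelled wild type, and these ranges overlapped.

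Bmp7, the survival signal of nephron progenitors, had probes that moved together. Probe A_52_P278354 had log2 ratios of -0.37, 0.41, 0.45 and 0.11, with a mean of 0.15 ± 0.38 (SD, n = 4; limma's adjusted p = 0.758). That mean was 0.32 without replicate 1, 0.065 without replicate 2 and 0.052 without replicate 3, and it was 0.014 with normexp and loess and 0.31 with normexp and median centring. Probe A_51_P492366, printed at 10 places, had -0.27, 0.54, 0.43 and 0.20, with a mean of 0.23 ± 0.36, which was 0.39 without replicate 1, 0.12 without replicate 2 and 0.42 with normexp and median centring. Replicate 1 was the only one below 0 on both probes. The first minus the second was -0.07 ± 0.07 (SD, n = 4; two-sided exact sign-flip permutation p = 0.25), and the 10 spots ran from 0.12 to 0.29.

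Bmp5, a ligand closely related to BMP7, had 2 probes, 1 of them near background. Probe A_51_P516637 had signals of 125.6 to 141.9 in the RNA labelled mutant and 75.7 to 159.5 in the RNA labelled wild type. Its log2 ratios of 0.03, 0.73, 0.14 and -0.17 gave a mean of 0.18 ± 0.39 (SD, n = 4; limma's adjusted p = 0.757), which was -0.0015 without replicate 2, 0.30 without replicate 4 and 0.03 with normexp and loess. Probe A_52_P118356 exceeded background clearly on only 4 of 8 arrays for the labelled mutant and 5 for the labelled wild type, with signals of 17.7 to 45.1 over both. Its log2 ratios were -0.20, 0.06, -0.17 and -0.55 (mean -0.21 ± 0.25, or -0.10 without replicate 4 and -0.033 with normexp and loess). It stood below the other probe in 4 of 4 replicates, by a mean of 0.40 ± 0.19 (SD, n = 4; exact sign-flip permutation p of 1 in 8, and 0.25 adjusted over the 4 genes with 2 probes).

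Grem1 encodes gremlin, the BMP antagonist of the mesenchyme. Its log2 ratios were -0.02, 0.77, 0.15 and 0.07, again with replicate 2 apart from the rest. The mean was 0.24 ± 0.36 (SD, n = 4; limma's adjusted p = 0.757), and 0.07 without replicate 2. It was 0.056 with normexp and loess and 0.028 with normexp and median centring.

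Bmper encodes a secreted protein that binds BMPs and can raise or lower their signalling. Probe A_51_P488196 had log2 ratios of -0.09, 0.55, 0.39 and 0.03 (mean 0.22 ± 0.30). The mean was 0.11 without replicate 2 and 0.46 with normexp and median centring. Probe A_52_P437421 had 0.02, 0.61, 0.46 and 0.18 (mean 0.32 ± 0.27). The latter was above 0 in 4 of 4 replicates, with an unadjusted p just under 0.05 in limma and an adjusted p of 0.757. The probes kept the same order of replicates, and their difference, second minus first, was 0.10 ± 0.04 (SD, n = 4; two-sided exact sign-flip permutation p of 1 in 8, and 0.25 adjusted over the 4 genes with 2 probes).

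Around the 9 genes, 89 other genes of the pathway were measured, and limma called 0 of them after adjustment, where 0.0175% of the named genes were called. Their lists were chosen with earlier results of these data known, so the shares below are a description only. At an unadjusted p under 0.05, 11 of the 89 passed, 8 above 0 and 3 below, which is 12.4% against 6.08% of all named genes. This count was 7 without replicate 1 and 5 without replicate 3, when 5.05% and 2.51% of all named genes were at that p. Within slide 1 it was 2 of 89 (2.25%, against 1.72% of all named genes) and within slide 2 it was 11 (12.4% against 8.18%). With normexp and loess 5 genes were higher and 3 lower, 8.99% against 7.36% of all named genes. With normexp and median centring 13 were higher and 0 lower, 14.6% against 14.0%. The share was thus near that of all named genes in both normexp settings and on slide 1.

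Of 27 other ligands, 14 were above 0, and the median ratio of the 27 was 0.00 (log2). That median was -0.09 with normexp and median centring and 0.08 within slide 2. At an unadjusted p under 0.05 in limma, Amh, the anti-Müllerian hormone, was higher at 0.39 ± 0.28 (SD, n = 4; adjusted p = 0.757) and Tgfb2, a TGF-beta, was lower at -0.32 ± 0.22 (adjusted p = 0.757). Of 15 other antagonists and modulators measured, 8 were above 0, with a median of 0.04, which turned to -0.08 with normexp and loess. Chrdl2, a BMP-binding relative of chordin, was the only one past that p, at 0.69 ± 0.53 (SD, n = 4; adjusted p = 0.712), from 0.30 in replicate 1 to 1.46 in replicate 2.

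Of 20 receptors and coreceptors, 12 were above 0, with a median log2 ratio of 0.03. The type I receptor Bmpr1b stood at 0.52 ± 0.34 (SD, n = 4; limma's adjusted p = 0.701) and the coreceptor Rgmb at 0.36 ± 0.17 (adjusted p = 0.703), while the type II receptor Bmpr2 stood at -0.44 ± 0.27 (adjusted p = 0.703). Each of these 3 had 1 sign in 4 of 4 replicates, and each was at an unadjusted p under 0.05. Of 10 Smad proteins and their ubiquitin ligases, 5 were above 0 and 0 reached an unadjusted p under 0.05. The inhibitory Smad7 had the smallest p of these, at 0.25 ± 0.36 (SD, n = 4; limma's adjusted p = 0.757). The median of the 10 genes was -0.0018, and it turned to 0.23 with normexp and median centring.

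Of 20 target genes of BMP and activin signalling, 13 were above 0 and 7 below (median 0.10, log2). Over all named genes, 58.4% were above 0. The median of the 20 genes was 0.29 with normexp and median centring, 0.16 within slide 1 and 0.03 within slide 2. At an unadjusted p under 0.05 in limma, 4 were higher and 1 was lower. Among all named genes, 4.14% were higher and 1.95% lower at that p. The zinc finger factor Gata2 stood at 0.41 ± 0.13 (SD, n = 4; limma's adjusted p = 0.569), though the mean of its other probe was 0.19. The T-box factor Tbx3 stood at 0.39 ± 0.14 (adjusted p = 0.616). Gata3, a factor of the bud that is also among the bud markers above, stood at 0.41 ± 0.30 (adjusted p = 0.757). Id4, an inhibitor of helix-loop-helix factors, stood at 0.28 ± 0.16 (adjusted p = 0.757), with another probe at 0.13. All 4 of these higher genes missed the adjusted threshold.

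**Figure D4:**
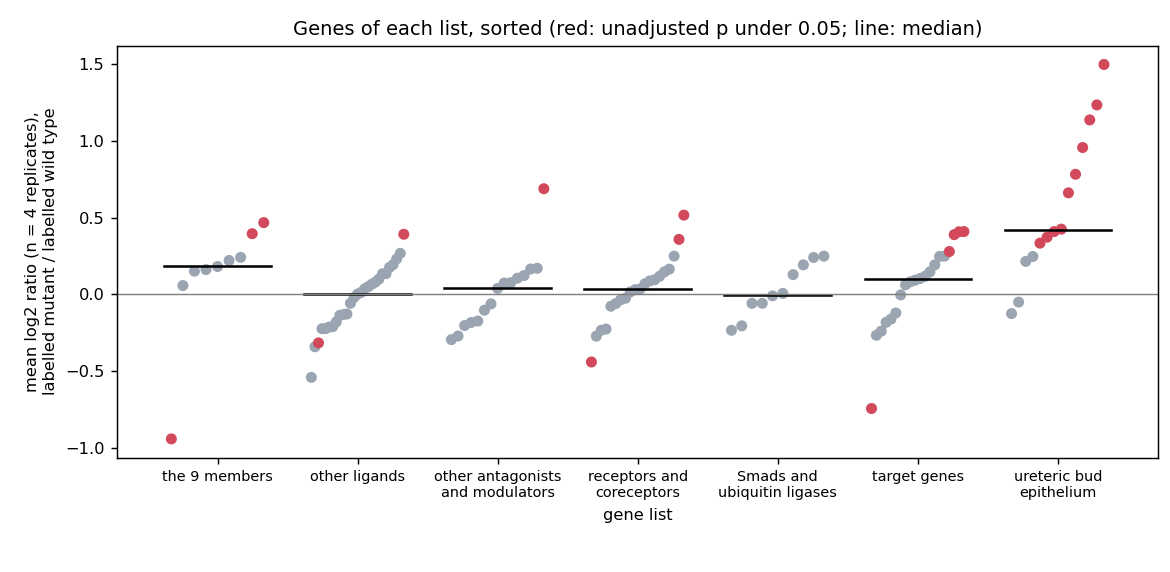
Each point is the mean log2 ratio of 1 gene over 4 replicates, labelled mutant over labelled wild type, sorted within its list, with a black line at the list's median. Red marks an unadjusted p under 0.05 in limma. The 5 pathway lists have medians of -0.00 to 0.10, the 9 members 0.18 with Inhbb alone far below at -0.94, and the bud markers 0.42.

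The pattern of Inhbb over the 4 replicates was set beside that of the other named genes, as a description. The smallest root mean square differences from its brighter probe, over 4 replicate log2 ratios, were those of Stra6 (0.242), the receptor for retinol uptake, Adamts18 (0.248), a secreted protease, and Krt6a (0.262), a keratin. Stra6 ran at -0.68, -1.14, -1.61 and -1.17. The genes were picked for this nearness, so any likeness of their replicate values to those of Inhbb follows from the choice. Adamts18 had a mean of -0.80 and Krt6a of -0.76.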

How the data were processed

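Two-colour Agilent arrays were scanned and extracted with Feature Extraction 10.5.1.1, per the file headers. The deposited log10 ratio of each spot is red over green processed signal, after the scanner software had subtracted background and normalized the dyes, per the file headers. The deposited intensity columns hold processed and median signals and local backgrounds. The deposited flags (well above background, saturated, outlier) are scored 0 or 1 and have no further unit. The authors' deposited table holds 496 log2 ratios.

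Ratios were turned to labelled mutant over labelled wild type and put on the log2 scale. Control spots (1639 of 45018) and outlier spots were left out, spots of a probe were averaged, and both dye orientations of a replicate were averaged. Probes were kept when 4 or more of the 8 arrays had 1 or both channels well above background, which left 39520 of 41174, all 13 described here among them. Replicate ratios were tested against 0 with lmFit and eBayes (limma 3.58.1, R 4.3.3, two-sided, Benjamini-Hochberg over all probes kept, threshold 0.05), after the fit was tested on simulated data. Exact sign-flip permutation tests were two-sided. The labels call the replicates biological. The number of arrays limits the precision. No spot was saturated.

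Symbols came from the RefSeq table of GRCm38.p6 by accession, for 25097 probes, and the probe with the highest mean log2 processed signal stood for its gene. Member genes and lists were chosen with earlier results of these data known. From each pathway list the text names up to 4 genes of smallest p among those at an unadjusted p under 0.05, or the 1 of smallest p, and for Inhbb, whose ratio was the largest in size, the 3 genes nearest to it. Crim1, Tll1, Tll2 and Sox10 were listed and not analysed here, and 1 gene of the target list, which the counts include, is not reported here. Same-numbered RNAs deviated together from their group means (correlations of 0.572 to 0.78 across probes), and they share their arrays.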

Additional observations from a re-analysis of the deposited data

Results flagged for a closer look

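In the dimmer Inhbb probe, A_51_P325904, replicate 2 lay far from the other 3, at a log2 ratio of -1.26 against -0.02, 0.13 and 0.04. For Hdac2, replicate 4 lay far from the rest, at -0.61 against 0.60, 0.60 and 0.74. Dixon's test at 95% marks about 1 in 20 groups by chance.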

How the results depend on the processing

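With 4 replicates the members were spread by up to 0.66 (SD, log2), and small ratios changed sign with the processing. Of the 7 probes called over the whole array, 6 higher and 1 lower, normexp with loess gave 1 (higher), normexp with median centring 17 (14 and 3), no filter on dim probes 2, and a filter asking both channels well above background on 8 arrays 13. All 8 arrays with the replicate block gave 133, the slide as a block 1, slide 1 alone 0 (758 at an unadjusted p under 0.05), slide 2 alone 452, the labelled mutant in Cy5 alone 1 and in Cy3 alone 36, and array weights 462. Leaving out each replicate gave 0 to 10, with 0 without replicates 1, 3 and 4 in turn (2596, 912 and 1962 at an unadjusted p under 0.05 in limma). Of the pathway genes at an unadjusted p under 0.05, 11 of 89, the strict filter left 7 of 72 (9.72%, against 6.22% of all named genes) and slide 1 had 2 (2.25% against 1.72%). The labelled mutant in Cy3 had 18 (20.2% against 16.6%) and array weights 17 (19.1% against 16.7%), while leaving out each replicate gave 5 to 13. The replicate block kept the sign of all members and made Inhbb A_52_P152847 a call (-0.94, limma's adjusted p = 0.0308), as did slide 2 alone (-1.06, 0.0308) and array weights (-1.06, 0.0143); over the alternatives its adjusted p was 0.0143 to 0.999 and its ratio -1.06 to -0.76. It ran from -1.06 to -0.84 with each replicate left out. Inhba turned to -0.044 with normexp and loess, -0.012 with normexp and median centring, -0.18 on slide 2, -0.026 with the labelled mutant in Cy5 and -0.20 with array weights, and ran from -0.17 to 0.18 with each replicate left out. Bmp5 A_51_P516637 turned to -0.066 with normexp and median centring and -0.015 on slide 2 (-0.0015 to 0.30 with each replicate left out). Inhbb A_51_P325904 turned to 0.086 on slide 2 and 0.051 with array weights (-0.41 to 0.051). The cause was not tested. The other members kept their sign under every alternative that gave a value, and none of them passed the adjusted threshold. The strict filter gave no value for Bmp5 A_52_P118356. Keeping outlier spots, chosen after seeing the data, left 7 probes called.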
